A study of Mus musculus with 48 samples.

Results

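The constitutive proteasome subunits were taken as the protein-coding genes whose GENCODE vM21 symbol is Psma, Psmb, Psmc or Psmd followed by a number, without the immunoproteasome subunits Psmb8, Psmb9 and Psmb10. The rule found 36 genes among the 55450 in the count table, of which 21951 are protein-coding. All 36 were kept by the filter on low counts in both experiments. RNA was sequenced from 48 B16-D5 melanomas grown under the skin of C57BL/6J mice, with 3 tumors in each of 16 conditions. The first experiment followed wild-type (WT) mice that were untreated at 0hrs, or untreated, given control IgG or given anti-PD-1 at D0, D1 and D3. The study's methods and most label entries of the D0 tumors point to 6 hours after treatment. The second experiment compared WT mice with mice lacking iNOS (KO), each untreated, given IgG or given anti-PD-1, with tumors taken at day 7. The titles of these tumors give no time, and day 7 comes from the study's account of its experiments. Conditions were taken from the sample titles, which other label fields contradict in places: the genotype field reads WT for all 48 tumors, so that the KO label rests on the titles alone, and the treatment and time fields differ from the titles for some tumors. Anti-PD-1 is an antibody that blocks a checkpoint receptor of T cells, and iNOS, encoded by Nos2, is the inducible nitric oxide synthase. The mice were purchased when 4 weeks old and kept for a further 2 weeks, tumor cells were injected 8 days before therapy, and 250 µg of antibody was given on days 0 and 3. The knockout was a property of the host, while the implanted cells were the same line in both genotypes, and those cells were not stated to carry it.

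The proteasome is the large protease that degrades ubiquitin-tagged proteins in every cell. Its 20S core particle is a stack of outer alpha rings (Psma genes), which gate the entrance, and inner beta rings (Psmb genes), which hold the catalytic sites. The 19S regulatory particle that caps the core has a ring of ATPases (Psmc genes) that unfold substrates and a set of non-ATPase subunits (Psmd genes) that bind and remove ubiquitin. The Psmd symbols also include 3 assembly chaperones, which help the cap assemble and are not part of the finished particle. In cells exposed to interferon, the catalytic beta subunits can be exchanged for the immunoproteasome subunits, which favor peptides for MHC class I. The 36 genes comprised 8 alpha, 8 beta, 6 ATPase and 11 non-ATPase genes and the chaperones Psmd5, Psmd9 and Psmd10.

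Libraries held 25574203 to 47687872 counts in the first experiment and 11625862 to 40959309 in the second. Counts on 1781 odorant, vomeronasal and taste receptor genes, which a melanoma has little reason to transcribe, served as a measure of background reads. Spread over all exons at the same density, such reads would make up 8.88% of the library of WT anti-PD-1 replicate 3 of day 7, 3.13% of replicate 4 of the same group and 2.21% of KO untreated replicate 1, against at most 0.786% in the other 45. These 3 libraries enter every main result of the second experiment below. Each library was left out in turn, and no fit left out all 3 together. The fit without WT anti-PD-1 replicate 3 is covered below only by the lowest and highest counts over such fits. All 8 melanocyte genes of the marker list were counted in every tumor. Nos2 did not separate the genotypes: it had 71 to 186 counts in untreated tumors labelled KO and 53 to 123 in those labelled WT. After IgG it had 84 to 233 counts in KO and 48 to 104 in WT, and after anti-PD-1 37 to 207 and 60 to 144. The implanted cells carry Nos2, and counts over the whole gene do not check which exons the host lacked, so the genotypes are those of the labels. The study describes the tumors of a condition as single tumors of 3 different mice, so the spread between replicates is that between animals.

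Promoter windows of 300 bases (250 before and 50 after the RefSeq start) were on hand for 29 of the 36 genes in RefSeq's GRCm38.p6 set, which holds 32851 windows in all. Both strands were searched for 6 short motifs. CCGGAAG, the core of an ETS factor site, occurred in 10 of 29 members against 8.86% of all windows. GGGCGG, the GC box, occurred in 18 of 29 members against 35.7% of all windows, and CCAAT in 12 of 29 members against 37.4% of all windows. TGACNNNGC, the core of the antioxidant response element to which Nfe2l1 and its relatives bind, occurred in 5 of 29 members against 12.4% of all windows. TGACGT, the core of a cyclic AMP response element, which can overlap TGACNNNGC, occurred in 4 of 29 members against 7.51% of all windows. The core of the interferon-stimulated response element, GAAA repeated after any 2 bases, occurred in 3 of 29 members against 3.44% of all windows. As shares of the 29 members these are 34.5%, 62.1%, 41.4%, 17.2%, 13.8% and 10.3% in the same order. Members were counted per gene, and the shares of all 27025 genes were 9.93%, 38.2%, 41.1%, 14%, 8.37% and 3.99%. As a description, the ETS core and the GC box were thus more frequent among members than among all genes. CCAAT was close to its share there, and the core of the antioxidant response element was little above it. The cores of the cyclic AMP and interferon-stimulated elements were also more frequent. The counts behind the last 3 shares are only 3 to 5 members, and none of the 6 motifs was tested. Shown are 120 bases upstream of both the RefSeq and the GENCODE start, adjoining the more upstream of them, 5′ to 3′ on the gene's strand, with these motifs in capitals, for the 4 alpha subunits that rose in untreated KO tumors, for 2 of the 3 catalytic subunits and for Psmd2, the large scaffold of the regulatory particle.
Psma3: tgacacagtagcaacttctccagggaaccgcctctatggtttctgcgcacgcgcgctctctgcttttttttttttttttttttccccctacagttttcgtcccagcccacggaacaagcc
Psma4: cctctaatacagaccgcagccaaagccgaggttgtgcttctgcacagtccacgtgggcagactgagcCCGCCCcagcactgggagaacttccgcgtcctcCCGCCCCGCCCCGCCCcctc
Psma5: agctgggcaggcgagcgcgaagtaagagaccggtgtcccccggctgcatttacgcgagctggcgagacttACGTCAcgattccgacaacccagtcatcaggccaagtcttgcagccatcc
Psma7: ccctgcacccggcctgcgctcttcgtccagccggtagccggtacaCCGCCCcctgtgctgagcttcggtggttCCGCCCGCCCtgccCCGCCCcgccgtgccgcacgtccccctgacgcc
Psmb5: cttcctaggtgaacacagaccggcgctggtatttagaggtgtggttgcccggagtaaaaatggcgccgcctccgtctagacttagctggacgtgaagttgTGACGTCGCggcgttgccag
Psmb6: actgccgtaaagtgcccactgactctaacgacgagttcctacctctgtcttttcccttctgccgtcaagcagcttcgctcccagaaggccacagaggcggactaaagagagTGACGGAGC
Psmd2: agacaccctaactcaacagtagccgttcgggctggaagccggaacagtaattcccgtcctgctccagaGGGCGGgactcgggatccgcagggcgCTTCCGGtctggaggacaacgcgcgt
The stretches lie at chr12:70974501-70974620 (plus strand), chr9:54950670-54950789 (plus strand), chr3:108256806-108256925 (plus strand), chr2:180042465-180042584 (minus strand), chr14:54618023-54618142 (minus strand), chr11:70525237-70525356 (plus strand) and chr16:20651532-20651651 (plus strand) of GRCm38.p6. No motif is shared by all 4 alpha genes in these stretches: Psma4 and Psma7 each hold 4 GC boxes, all on the opposite strand, Psma5 holds TGACGT on the opposite strand, and Psma3 holds none of the 6. In Psmb5 and Psmb6 the capitals mark TGACNNNGC. In Psmb5 this match also holds TGACGT. In Psmd2 the capitals mark GGGCGG and, on the opposite strand, CCGGAAG.

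Levels were compared between genes as CPM (counts scaled to a common library size) divided by the length of all exons of the gene (CPM per kb), with the SD over the 30 tumors of the time course. Psmc1, an ATPase whose tail helps to open the gate of the core, had the highest level of all members at 105 ± 22.04 CPM per kb. Among the alpha genes Psma6 was highest at 55.6 ± 12.2 and Psma3 the lowest of the 7 that are widely used, at 11.7 ± 2.23. Psma6 and Psma4, at 54.4 ± 5.62, differed by less than their spread. Among the beta genes Psmb2 was highest at 50.8 ± 13.8 CPM per kb and Psmb1 lowest of 7 at 12.1 ± 1.92, close to Psmb3 at 13.3 ± 3.24, and Psmb2 and Psmb6, at 48.7 ± 9.76, again differed by less than their spread. The lowest ATPase was Psmc6, at 21.97 ± 4.57. Non-ATPase genes ran from 55.9 ± 7.50 for Psmd2 to 6.36 ± 0.925 for Psmd6. Apart from Psma8 and Psmb11, the chaperones lay below all other members, Psmd10 at 4.53 ± 1.28, Psmd5 at 3.46 ± 0.713 and Psmd9 at 3.19 ± 0.569 CPM per kb. Psma8 and Psmb11 aside, the 34 genes spanned 32.96-fold in the time course and 32.1-fold at day 7. The exon length includes rarely used exons: with the length of the principal transcript in its place, a choice made after seeing the data, the span was 27.5-fold and 25.3-fold, and Psma4 at 111 stood above Psma6 at 65.8 CPM per kb, and Psmb6 at 114 above Psmb2 at 71.2. The lowest beta gene was then Psmb5 at 23.2, with Psmb1 at 31.5, and the highest non-ATPase gene Psmd8 at 93.5, with Psmd2 at 76.2 CPM per kb. At day 7 Psmd8, at 56.6 ± 8.75, and Psmd2, at 48.7 ± 7.74, also stood in that order per kb of exon. The order of the 34 genes was nearly the same in the 2 experiments (Spearman's rho across genes 0.971).

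**Figure D1:**
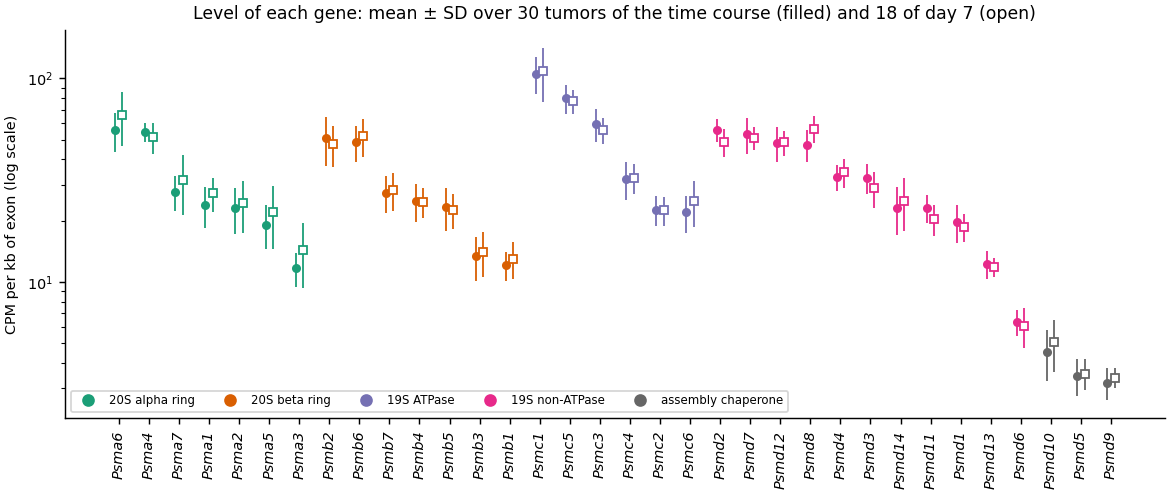
Level of 34 genes in CPM per kb of exon on a log axis, as the mean with the SD over the 30 tumors of the time course (filled circles) and over the 18 tumors of day 7 (open squares), colored by structural group. Psmc1 has the highest level and the chaperones Psmd10, Psmd5 and Psmd9 the lowest, in both experiments.

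Psma8, the alpha subunit of the testis, and Psmb11, the catalytic subunit of thymic cortical epithelium, matched the naming rule but are not constitutive subunits, and they were close to undetected here. Psma8 had 0 to 30 counts per library in the time course and 0 to 35 at day 7. Psmb11 had 0 to 19 counts per library in the time course and 0 to 80 at day 7. Its highest values at day 7, 80 counts in WT anti-PD-1 replicate 3, 72 in KO untreated replicate 1 and 31 in WT anti-PD-1 replicate 4, were in the 3 libraries with the most reads on sensory receptor genes. The part of those reads in the counts was not tested. In 15 of the 48 libraries Psmb11 had 0 counts, which allows up to 3 counts each by counting error alone.

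In the time course no member was called in any comparison of treatment or time. The comparison asks whether checkpoint blockade alters the tumor transcriptome within days, and the 3 catalytic beta subunits show the spread of the members in it. In untreated tumors at 0hrs, Psmb5 was 31.8, 17.8 and 10.05 CPM. At D0, Psmb5 was 16.8, 22.7 and 24.8 CPM in untreated tumors, 22.5, 22.8 and 11.3 CPM after IgG and 20.3, 22.5 and 21.9 CPM after anti-PD-1. Psmb5 carries the chymotrypsin-like site, the main target of the proteasome inhibitors used against myeloma, and its values after anti-PD-1 lay within those of the other tumors at D0. At D1, Psmb5 was 17.3, 21.2 and 16.3 CPM in untreated tumors, 12.1, 23.4 and 17.6 CPM after IgG and 16.5, 27.6 and 17.3 CPM after anti-PD-1. At D3, Psmb5 was 27.2, 27.1 and 19.6 CPM in untreated tumors, 24.4, 23.9 and 20.6 CPM after IgG and 24.4, 20.1 and 24.8 CPM after anti-PD-1. At both later times its groups overlapped as well. In untreated tumors at 0hrs, Psmb6 was 95.6, 104 and 86.4 CPM. At D0, Psmb6 was 71.9, 126 and 128 CPM in untreated tumors, 90.9, 87.9 and 37.2 CPM after IgG and 100.9, 94.1 and 102 CPM after anti-PD-1. Psmb6 carries the caspase-like site, and all 3 values after anti-PD-1 lay above those after IgG at D0, but within those of untreated tumors. At D1, Psmb6 was 84.3, 94.7 and 71.5 CPM in untreated tumors, 64.98, 95.6 and 71.6 CPM after IgG and 87.4, 93.2 and 63.98 CPM after anti-PD-1. At D3, Psmb6 was 114, 97.2 and 92.1 CPM in untreated tumors, 97.2, 81.7 and 98.98 CPM after IgG and 105, 94.2 and 105 CPM after anti-PD-1. The lowest value of Psmb6 was that of IgG replicate 6 of D0, and the other 29 tumors of the time course had 63.98 CPM or more. In untreated tumors at 0hrs, Psmb7 was 113, 95.8 and 59.7 CPM. At D0, Psmb7 was 77.6, 123 and 132 CPM in untreated tumors, 109, 77.7 and 95.6 CPM after IgG and 108, 88.1 and 103 CPM after anti-PD-1. Psmb7 carries the trypsin-like site, and its groups overlapped at D0. At D1, Psmb7 was 102, 97.7 and 72.1 CPM in untreated tumors, 65.5, 86.3 and 66.4 CPM after IgG and 60.3, 110.4 and 64.8 CPM after anti-PD-1. At D3, Psmb7 was 117, 84.98 and 91.6 CPM in untreated tumors, 93.4, 85.4 and 109.9 CPM after IgG and 109, 94.5 and 112 CPM after anti-PD-1. They overlapped at D1 and D3 too.

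Anti-PD-1 was compared with IgG at each time. No member passed the test at D0, D1 or D3 (edgeR's quasi-likelihood test, adjusted over 26848 genes), and at each time 0.0% of all genes were called. Unadjusted p was under 0.05 for none of the 36 at D0, D1 or D3, while 0.778%, 1.1% and 0.518% of all genes were higher and 3.6%, 2.53% and 1.62% lower at that level. The median log2 fold change of the 36 was 0.10 at D0, 0.05 at D1 and 0.15 at D3, with a median SE of 0.24, beside -0.07, -0.01 and 0.0021 over all genes. The member with the smallest p was Psmb6 at D0 (log2 fold change 0.46 ± 0.24 (SE), adjusted p = 0.967), Psma6 at D1 (log2 fold change 0.24 ± 0.24 (SE), adjusted p = 1) and Psma4 at D3 (log2 fold change 0.23 ± 0.14 (SE), adjusted p = 1). At D3, 34 of 36 members had a positive value beside 50.2% of all genes and 73.6% of the 9509 other genes with a mean of at least 10 CPM. Anti-PD-1 and IgG did not overlap for 5 members at D3 (Psma4, Psmb1, Psmc3, Psmd8 and Psmd13, all higher, beside 3.5% of all genes), for 2 at D0 (Psmb6 and Psmc4, beside 2.13%) and for none at D1. The library of IgG replicate 6 of D0 stood apart from its group in several members, with Psma7 at 51.5, Psmb2 at 23.6 and Psmb5 at 11.3 CPM, and without it the D0 comparison still called none.

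Averaged over the 3 times, anti-PD-1 against IgG gave a median of 0.09 over the members and called none, with 0.0% of all genes called, and none had an unadjusted p under 0.05 (0.987% of all genes higher, 4.85% lower). Psma4 had the smallest p (log2 fold change 0.14 ± 0.08 (SE), adjusted p = 0.9). IgG against untreated over the same times gave -0.14, again with no member and 0.0% of genes called, and 33 of 36 members were below 0, beside 55.6% of all genes above 0. Psmc1 was the 1 member with an unadjusted p under 0.05 (log2 fold change -0.38 ± 0.13 (SE), adjusted p = 0.527), in a comparison in which 3.3% of all genes were lower and 5.95% higher at that level. Anti-PD-1 against untreated at D0 had a median of -0.06 (smallest p: Psmd4, log2 fold change -0.19 ± 0.16 (SE), adjusted p = 1). Untreated D3 against untreated 0hrs had a median of 0.11 (smallest p: Psmd12, log2 fold change 0.30 ± 0.22 (SE), adjusted p = 0.847). Both called 0.0% of genes and none of the members, and no member had an unadjusted p under 0.05, beside 2.13% higher and 1.17% lower of all genes in the first and 2.2% and 4.69% in the second. A test for any difference among the 10 conditions called none of the members or of all genes (0.0%), with adjusted p of at least 0.869 for each member, and it gave the smallest p to Psmc1, Psmd4, Psma6, Psmd12 and Psmc6, with 0 of 36 members and 5.7% of all genes under 0.05 unadjusted. DESeq2 called none of the 36 in any of these 8 comparisons either.

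Across single tumors of the time course the members were high or low together. The summed level of the 36 genes was lowest, at 2129 CPM, in untreated 0hrs replicate 3, and highest, at 3815 CPM, in untreated D0 replicate 4. With group means removed, each of the 34 widely used genes was correlated with the mean of the other 33 across the 30 tumors. The median r was 0.859, from 0.55 for Psma4 to 0.96 for Psmc4, beside a median of 0.421 for the other 9509 genes of at least 10 CPM. These values share libraries and scaling and are given without a test. At day 7 the median was 0.437 over 18 tumors, from -0.0603 for Psmd9 to 0.868 for Psma1, beside 0.254 for other genes. The members thus varied together more closely in the time course than at day 7, where the alpha genes had a median of 0.266.

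Markers of other cells stood apart in 4 of the 5 tumors with the lowest sums. The summed fibroblast genes (5 of 5 counted in every tumor: Col1a1, Col1a2, Col3a1, Dcn and Pdgfra) ran from 830.5 to 9240.2 CPM in the time course, and the 4 tumors with the highest values of this sum, untreated 0hrs replicate 3, anti-PD-1 D1 replicate 5, IgG D1 replicate 6 and IgG D1 replicate 2, had 9240.2, 9133, 8583 and 8466 CPM. Their member sums were 2129, 2209, 2320.5 and 2149 CPM, below the experiment's median of 3040.4. Their melanocyte sums (8 of 8 genes counted in every tumor) were 9396, 10660.5, 10311 and 10862 CPM, below the median of 14281. Leukocyte genes, of which 8 of 11 were counted in every tumor and Cd8a, S100a8 and S100a9 were at 0 in some, summed to 161 to 1301 CPM. Muscle genes, with Acta1 and Myh4 at 0 in some tumors, reached 5024 CPM, and keratin genes, none of 4 counted in every tumor, reached 3339.5 CPM, both highest in untreated 0hrs replicate 3. Other tumors went another way: anti-PD-1 D3 replicate 4 had 7395 CPM of fibroblast genes with a member sum of 2985, and anti-PD-1 D1 replicate 2 had 3999 CPM with a member sum of 2286. In bulk tumors, fewer melanoma cells and less proteasome RNA per cell cannot be told apart.

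**Figure D2:**
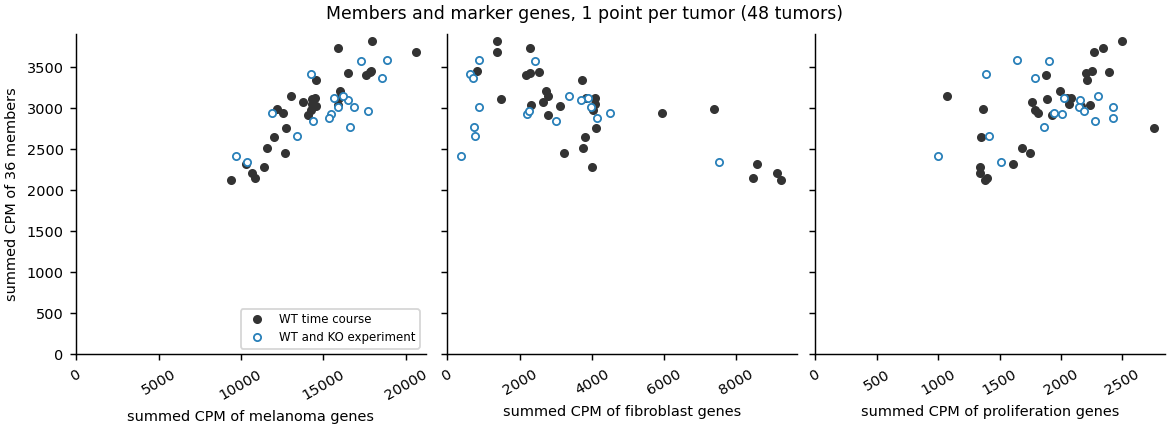
Summed CPM of the 36 genes against the summed CPM of 8 melanocyte, 5 fibroblast and 5 proliferation genes, 1 point per tumor (filled, time course; open, day 7). The 4 tumors with the highest fibroblast sums had member sums of 2129 to 2320.5 CPM.

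At day 7 the alpha ring stood out in untreated tumors, where the comparison of genotypes asks what host iNOS changes without therapy. In the edgeR test, 4 members were higher in tumors labelled KO and none lower, all of them alpha subunits, with 0.584% of the 30837 genes tested called higher and 0.00324% lower. Among the 9575 other genes of at least 10 CPM, 1.56% were called higher. Psma3 was 89.7, 107 and 91.5 CPM in untreated KO tumors and 55.7, 42.4 and 42.4 CPM in untreated WT tumors (log2 fold change 1.04 ± 0.16 (SE), adjusted p = 0.00724). Psma7 was 189, 129 and 148 CPM in untreated KO tumors and 72.8, 79.2 and 83.8 CPM in untreated WT tumors (log2 fold change 0.98 ± 0.17 (SE), adjusted p = 0.0129). Psma5 was 42.4, 55.3 and 43.2 CPM in untreated KO tumors and 28.7, 24.6 and 24.1 CPM in untreated WT tumors (log2 fold change 0.86 ± 0.18 (SE), adjusted p = 0.0276). For these 3 subunits of the outer ring the groups did not overlap, and the means of Psma3 were 96.1 ± 9.56 and 46.8 ± 7.68 CPM (SD, n = 3). Psma4 was 175, 139.9 and 169.7 CPM in untreated KO tumors and 108, 105 and 100.3 CPM in untreated WT tumors (log2 fold change 0.63 ± 0.14 (SE), adjusted p = 0.041). Psma4 belongs to the subunits whose tails close the gate of the core. Psma6 was 136, 114 and 119 CPM in untreated KO tumors and 71.03, 74.7 and 68.99 CPM in untreated WT tumors (log2 fold change 0.78 ± 0.19 (SE), adjusted p = 0.0691). Psma6 missed the threshold although its groups did not overlap, and so did Psma1 (log2 fold change 0.36 ± 0.17 (SE), adjusted p = 0.299) and Psma2 (log2 fold change 0.41 ± 0.23 (SE), adjusted p = 0.307). All 7 widely used alpha genes were higher without overlap, beside 9.73% of all genes. Their median log2 fold change was 0.78, beside 0.49 over all genes tested and -0.15 over the 9314 other genes of at least 10 CPM with a principal transcript. In mm10 (GENCODE vM21) the 4 called genes lie at Psma3 chr12:70974621-70996347, Psma4 chr9:54950790-54958030, Psma5 chr3:108256926-108279974 and Psma7 chr2:180036374-180042433. Exons of Psma4 and Psma5 overlap genes on the opposite strand (AY074887 and 1700010K24Rik). The libraries were strand-specific, but whether the counting used strand is not given in the sources used here.

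The 4 calls depended on the fit. With the reads on sensory receptor genes as a covariate no member was called, and Psma3 had an adjusted p of 0.0752 and a log2 fold change of 1.01, whereas subtracting that background called 6. Leaving out KO untreated replicate 2 or WT untreated replicate 3 left 2 members, and leaving out WT untreated replicate 1 or replicate 2 left 1, Psma3, which was past the threshold in 12 of 13 alternative settings. Psma7 was past it in 10 of the 13 (adjusted p up to 0.164), Psma5 in 7 (up to 0.233) and Psma4 in 3 (up to 0.414). Without KO untreated replicate 1, the library with the highest receptor reads of its group, 3 were called (Psma3, Psma5 and Psma7). Background reads were higher in every untreated KO library (2.21%, 0.189% and 0.153%) than in the untreated WT libraries (0.0637%, 0.0794% and 0.0446%). The part of these reads in the calls was not tested further.

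**Figure D3:**
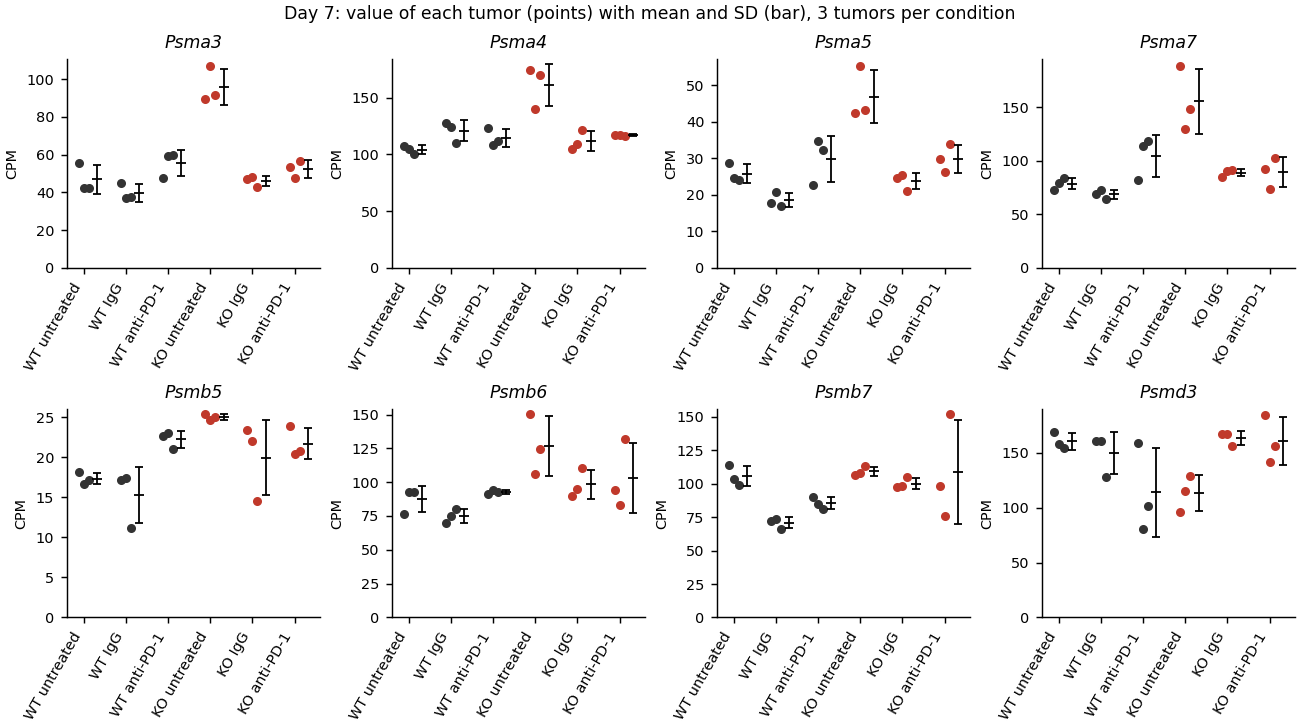
CPM of 8 genes in the 18 tumors of day 7, 1 point per tumor, with the mean and SD of each group of 3 beside the points (black, WT; red, KO). Psma3, Psma4, Psma5 and Psma7 are highest in the 3 untreated KO tumors, while Psmd3 is lowest in those tumors, in replicates 3 and 4 of WT anti-PD-1 and in replicate 3 of WT IgG.

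Of the catalytic beta subunits none passed the test between untreated genotypes. Psmb5 was 18.1, 16.7 and 17.2 CPM untreated, 17.2, 17.5 and 11.2 CPM after IgG and 22.7, 23.02 and 21.1 CPM after anti-PD-1 in tumors labelled WT. In tumors labelled KO it was 25.4, 24.6 and 25.04 CPM untreated, 23.4, 21.99 and 14.6 CPM after IgG and 23.9, 20.4 and 20.8 CPM after anti-PD-1. All untreated KO values of Psmb5 lay above the untreated WT values (log2 fold change 0.53 ± 0.19 (SE), adjusted p = 0.275). Psmb6 was 76.2, 93.00 and 92.9 CPM untreated, 69.6, 75.3 and 80.2 CPM after IgG and 91.1, 94.4 and 93.1 CPM after anti-PD-1 in tumors labelled WT. In tumors labelled KO it was 150.3, 106 and 124 CPM untreated, 89.8, 94.99 and 110.1 CPM after IgG and 94.2, 83.2 and 132 CPM after anti-PD-1. Psmb6 likewise did not overlap between untreated groups (log2 fold change 0.54 ± 0.18 (SE), adjusted p = 0.23). Psmb7 was 114, 104 and 99.2 CPM untreated, 72.2, 73.9 and 66.2 CPM after IgG and 89.9, 85.1 and 80.9 CPM after anti-PD-1 in tumors labelled WT. In tumors labelled KO it was 107, 108 and 113 CPM untreated, 97.4, 98.3 and 105 CPM after IgG and 97.97, 76.04 and 152 CPM after anti-PD-1. Psmb7 overlapped (log2 fold change 0.05 ± 0.18 (SE), adjusted p = 0.898), so that the 3 catalytic subunits did not show the same pattern. The non-catalytic Psmb1, Psmb2 and Psmb4 did not overlap and had log2 fold changes of 0.47 ± 0.14, 0.62 ± 0.17 and 0.51 ± 0.14 (SE), with adjusted p of 0.173, 0.116 and 0.137. The 7 widely used beta genes had a median of 0.51, beside 0.49 over all genes tested. Over the 9314 other genes of at least 10 CPM with a principal transcript the median was -0.15. Of the 7, 5 were higher without overlap, beside 9.73% of all genes, and 6 were higher at an unadjusted p under 0.05, beside 13.1%.

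None of the 17 genes of the regulatory particle or the 3 chaperones passed the test between untreated genotypes. The log2 fold change of the 6 ATPases had a median of 0.17, from -0.13 for Psmc2 to 0.60 for Psmc6, and Psmc3 and Psmc6 did not overlap. The 11 non-ATPase genes had a median of -0.10, with 5 above and 6 below 0. Psmd3 was 96.4, 115 and 129 CPM in untreated KO tumors and 169, 158 and 154 CPM in untreated WT tumors (log2 fold change -0.50 ± 0.20 (SE), adjusted p = 0.299). Psmd3, a lid subunit, thus had groups that did not overlap in the direction opposite to the alpha genes, and its test did not pass the threshold. Psmd2 was 165, 199.5 and 211 CPM in untreated KO tumors and 244, 199 and 212 CPM in untreated WT tumors, with overlapping groups. Psmd14 was 122, 85.9 and 110.0 CPM in untreated KO tumors and 82.6, 63.2 and 75.6 CPM in untreated WT tumors (log2 fold change 0.52 ± 0.19 (SE), adjusted p = 0.281). Psmd14 is the deubiquitinase of the lid, and it and Psmd13 were the non-ATPase genes that were higher without overlap. Of the chaperones, Psmd5 was lower in KO without overlap, by a narrow margin (18.5, 26.8 and 27.99 against 36.6, 28.04 and 29.6 CPM, log2 fold change -0.36 ± 0.19 (SE), adjusted p = 0.303). Psmd9 (log2 fold change 0.26 ± 0.14 (SE), adjusted p = 0.303) and Psmd10, known as gankyrin (log2 fold change 0.65 ± 0.30 (SE), adjusted p = 0.299), were higher without overlap. Psma8 and Psmb11 included, 20 members were higher and 2 lower without overlap, beside 9.73% and 8.0% of all genes, and unadjusted p was under 0.05 for 17 that were higher and 1 that was lower, beside 13.1% and 3.37%. Of the 36, 27 were above 0, beside 67.1% of all genes. The median over the 36 was 0.39, beside 0.49 over all genes tested and -0.15 over the 9314 other genes of at least 10 CPM with a principal transcript.

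**Figure D4:**
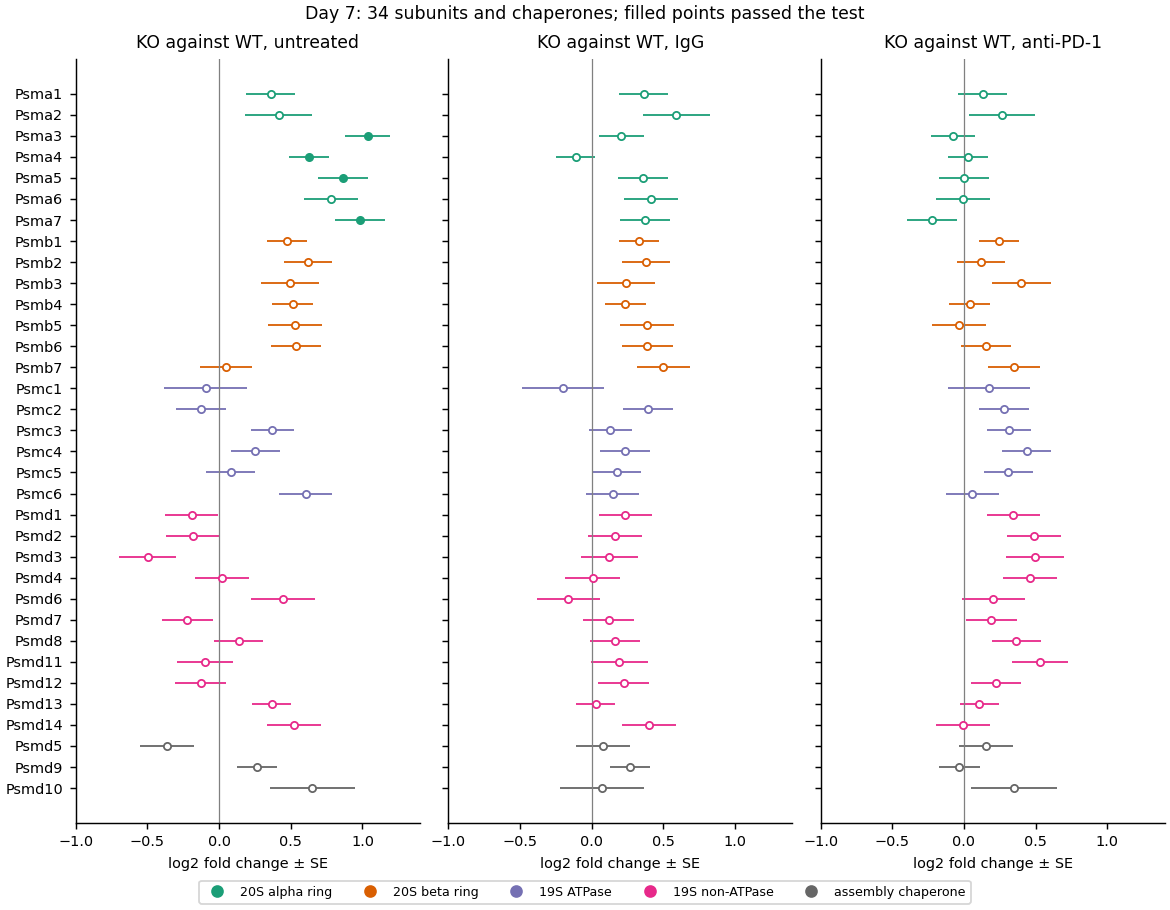
Log2 fold change (point) with its SE (line) of 34 genes between tumors labelled KO and WT at day 7, for untreated, IgG-treated and anti-PD-1-treated tumors, colored by structural group; filled points passed the test. The alpha genes have the highest group median in untreated tumors ( 0.78) and a median near 0 after anti-PD-1 (0.0027).

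In treated tumors no member was called between genotypes. After IgG no member and 0.0% of genes passed the test. The median difference (log2, KO minus WT) was 0.36 for the alpha genes, 0.38 for the beta genes and 0.16 for the non-ATPase genes, 10 members had an unadjusted p under 0.05 and were higher in KO (beside 2.15% of all genes, with 4.12% lower), and 13 did not overlap (beside 5.7%). Psmb7 had the smallest p: it was 97.4, 98.3 and 105 CPM in KO and 72.2, 73.9 and 66.2 CPM in WT (log2 fold change 0.50 ± 0.18 (SE), adjusted p = 0.626). After anti-PD-1 no member and 0.0% of genes passed, and the order of the structural groups differed: the non-ATPase genes had a median of 0.35, the ATPases 0.30, the beta genes 0.15 and the alpha genes 0.0027. Psmd11, a lid subunit, had the smallest p: it was 150.1, 148 and 154 CPM in KO and 139.6, 78.9 and 93.8 CPM in WT (log2 fold change 0.53 ± 0.20 (SE), adjusted p = 0.134). Its 2 low WT values belong to replicates 3 and 4, the libraries with the most receptor reads, and without replicate 2 of the same group 5 members were called. Unadjusted p was under 0.05 for 6 members that were higher and 1 that was lower, beside 5.69% and 26.6% of all genes, and 8 were higher and 1 lower without overlap, beside 5.33% and 17%. The 1 lower member was Psmb11 in both counts. DESeq2 called none of the members after IgG and 2 after anti-PD-1. Whether the genotypes differed more in untreated than in anti-PD-1-treated tumors was tested after these values were seen. In that contrast 6 members were called higher and 1 lower, beside 19.6% and 2.85% of all genes tested. Members were thus not called more often than all genes tested, whose median was 1.36, beside 0.23 for the members. The share among genes of at least 10 CPM was not taken for this contrast, so the members were not compared with genes of their level. The same contrast with IgG called none (0.0% of genes).

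Averaged over the 3 treatments, KO against WT had a median of 0.24 over the members and -0.19 over all genes. No member was called, with 0.00973% of all genes called higher and 0.0% lower. Of the 36, 33 were above 0, beside 35.2% of all genes and 65.2% of the other genes of at least 10 CPM, and 20 were higher at an unadjusted p under 0.05, beside 5.07% of all genes (7.3% lower) and 13.3% of the others of at least 10 CPM. All 7 widely used alpha and all 7 beta genes were among the 20. Psma3 had the smallest p (log2 fold change 0.39 ± 0.09 (SE), adjusted p = 0.162). Leaving out KO untreated replicate 1 called 4 members, and DESeq2 called 8, without the share of all genes in these fits.

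Anti-PD-1 against IgG at day 7 called no member and 0.0% of genes in either genotype. In WT tumors Psma5 had the smallest p: it was 22.7, 34.8 and 32.2 CPM after anti-PD-1 and 17.8, 20.7 and 17.1 CPM after IgG (log2 fold change 0.69 ± 0.18 (SE), adjusted p = 0.305), so that all 3 values after anti-PD-1 lay above those after IgG. The log2 fold change in WT had a median of 0.47 for the alpha, 0.27 for the beta and -0.19 for the non-ATPase genes. Unadjusted p was under 0.05 for 7 members that were higher and 1, Psmc1, that was lower (beside 10.6% and 5.75% of all genes), and 12 were higher without overlap (beside 9.02%). Leaving out WT anti-PD-1 replicate 2, which keeps the 2 libraries with the most receptor reads, called 3 members. This comparison and that of the genotypes after anti-PD-1 share the 3 WT anti-PD-1 tumors. In KO tumors the medians were 0.13, 0.07 and 0.005, no member had an unadjusted p under 0.05 (0.85% of all genes higher, 1.09% lower), and Psma5 again had the smallest p (29.7, 26.1 and 33.9 CPM against 24.5, 25.5 and 21.2 CPM, log2 fold change 0.33 ± 0.18 (SE), adjusted p = 1). The difference between the genotypes in this response called no member and 0.0% of genes. Psma7, the 1 member with an unadjusted p under 0.05 (0.973% of all genes higher, 6.44% lower), had the smallest p (log2 difference, KO minus WT, -0.60 ± 0.25 (SE), adjusted p = 0.67).

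IgG against untreated, averaged over the genotypes, came nearest to a call among the treatments. Psma3 was 45.1, 36.9 and 37.4 CPM after IgG and 55.7, 42.4 and 42.4 untreated in WT, and 47.1, 48.1 and 42.8 after IgG and 89.7, 107 and 91.5 untreated in KO (log2 fold change -0.65 ± 0.11 (SE), adjusted p = 0.0511). Psma5 had -0.73 ± 0.12 (SE) with the same adjusted p of 0.0511. No member and 0.0% of genes passed, while 13 members were lower at an unadjusted p under 0.05, beside 6.13% of all genes (3.93% higher). This comparison uses the same untreated KO tumors as that of the untreated genotypes. With DESeq2, or with these 4 groups alone, 9 members passed, and leaving out single libraries gave 0 to 4. The share of all genes called in these fits is not given, so these counts do not set the members apart from other genes. The test for any difference among the 6 conditions called 6 members, beside 1.66% of all genes and 2.63% of the other genes of at least 10 CPM. These were Psma3 (adjusted p = 0.00371), Psma5 (0.00671), Psma7 (0.00985), Psmb1 (0.0278), Psma6 (0.0295) and Psmd14 (0.035), and 19 members, against 28.2% of genes, had an unadjusted p under 0.05. Psma3, Psma5 and Psma7 passed in all 24 alternative settings of that test. Leaving out WT anti-PD-1 replicate 2 raised the count to 13 and leaving out replicate 4 lowered it to 3, again without the share of all genes.

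The balance of the 2 particles at the RNA level was taken within each tumor as the summed CPM of the 14 widely used core genes over that of the 17 genes of the regulatory particle. It was 0.386 to 0.509 in the 30 tumors of the time course. At day 7 it was 0.438, 0.417 and 0.444 in untreated WT tumors and 0.703, 0.606 and 0.622 in untreated KO tumors. After IgG it was 0.381, 0.366 and 0.447 in WT and 0.461, 0.469 and 0.419 in KO, and after anti-PD-1 0.441, 0.65 and 0.583 in WT and 0.433, 0.433 and 0.528 in KO. The ratio was thus above 0.55 in 5 of the 48 tumors, the 3 untreated KO tumors and replicates 3 and 4 of WT anti-PD-1, which include the 3 libraries with the most receptor reads. KO untreated replicates 2 and 4 had background reads of 0.189% and 0.153% of the library, within the range of the other libraries. Both were above untreated WT replicates 1, 2 and 3, at 0.0637%, 0.0794% and 0.0446%. The part of these reads in the ratio was not tested. Fibroblast genes were low in the same 5 tumors, with 636, 702 and 863 CPM in untreated KO and 368 and 754 CPM in the 2 WT tumors, against 875, 3967 and 2246 CPM in untreated WT, and 736 CPM in KO anti-PD-1 replicate 2, whose ratio was 0.433. The proliferation genes (5 of 5 counted in every tumor) summed to 1389, 1790.3 and 1639 CPM in untreated KO and 2424, 2148 and 2184 CPM in untreated WT tumors. The leukocyte sum was 210.4, 144 and 247 CPM in untreated KO and 127, 376 and 206 CPM in untreated WT tumors. The part of these markers in the ratio was not tested.

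**Figure D5:**
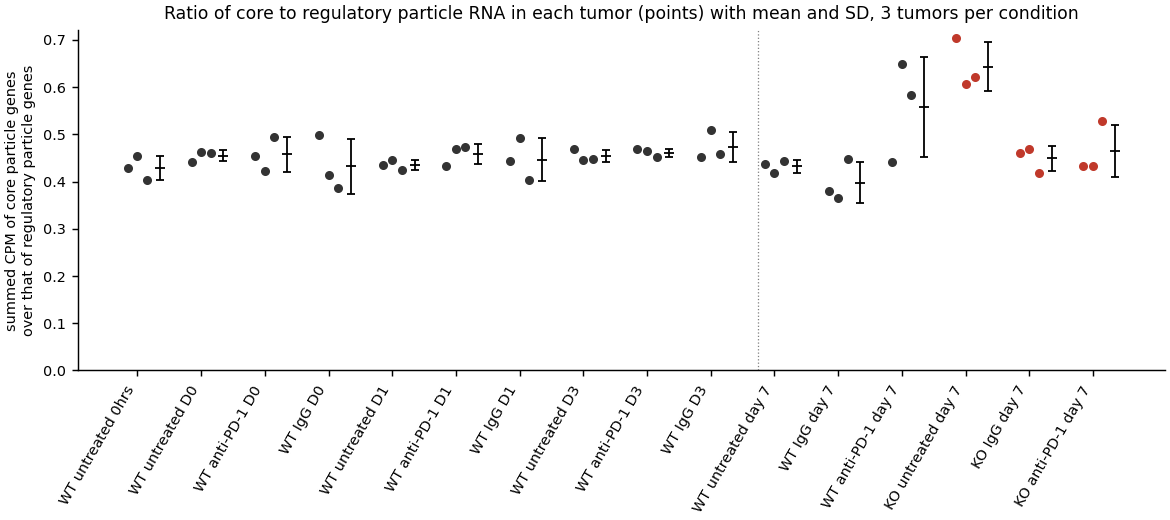
Summed CPM of 14 core particle genes over that of 17 regulatory particle genes in each of 48 tumors (points; black, WT; red, KO) with the mean and SD of each condition, the time course left of the dotted line and day 7 right of it. The 3 untreated KO tumors and 2 WT anti-PD-1 tumors lie above 0.55, and the time course stays between 0.386 and 0.509.

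Transcript length moved with the same differences. The principal transcripts of the alpha genes had a median length of 1201 bases and those of the beta genes 899, against 1613.5 for the ATPases and 1904 for the non-ATPase genes. Across the 34 members, Spearman's rho between length and the log2 fold change of KO against WT in untreated tumors was -0.531. Across the 9314 other genes of at least 10 CPM it was -0.478, so that short transcripts were higher in untreated KO tumors over the transcriptome as well. For anti-PD-1 against IgG in WT the values were -0.31 and -0.38, and for KO against WT after anti-PD-1 they were 0.249 and 0.116. These are descriptions across genes of the same libraries, which are not independent replicates. The part of length in the calls was not tested.

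Other genes of the pathway were followed as a fixed list of 30 symbols, of which 28 were in the annotation and all 28 were tested. Between untreated genotypes 2 were called higher and 0 lower, beside 0.584% and 0.00324% of all genes. Unadjusted p was under 0.05 for 9, beside 13.1% of all genes higher and 3.37% lower, and the median log2 fold change was -0.08. Psme2 was 49.95, 35.9 and 50.7 CPM in untreated tumors labelled KO and 14.03, 18.9 and 15.5 CPM in those labelled WT (log2 fold change 1.497 ± 0.19 (SE), adjusted p = 0.00432). Psmg4 was 10.3, 13.1 and 11.6 CPM in untreated tumors labelled KO and 4.24, 4.05 and 5.52 CPM in those labelled WT (log2 fold change 1.34 ± 0.28 (SE), adjusted p = 0.0294). Psme2 is a subunit of the interferon-inducible cap that opens the core in place of the ATPase cap, and Psmg4 is a chaperone of alpha ring assembly, and both had groups that did not overlap. Psme1 was 230.2, 175 and 286 CPM in untreated tumors labelled KO and 139.8, 130.2 and 134 CPM in those labelled WT (log2 fold change 0.77 ± 0.20 (SE), adjusted p = 0.0931). Psme1 is the partner of Psme2. Pomp was 125, 92.6 and 124 CPM in untreated tumors labelled KO and 72.7, 82.9 and 76.9 CPM in those labelled WT (log2 fold change 0.56 ± 0.17 (SE), adjusted p = 0.177). Pomp, the maturation factor of the core, and Psme1 missed the threshold, while Nfe2l1, the transcription factor that induces proteasome genes when the protease fails, had overlapping groups (log2 fold change -0.17 ± 0.21 (SE), adjusted p = 0.657). None of the 28 was called in the other 14 comparisons of 2 conditions or of their means. The tests over all conditions called Psme2, Psmg4 and Psme1 at day 7, beside 1.66% of all genes, and none in the time course. The 3 immunoproteasome subunits were all called higher in untreated KO tumors, Psmb9 most (log2 fold change 2.11 ± 0.33 (SE), adjusted p = 0.00724), then Psmb8 (log2 fold change 1.26 ± 0.25 (SE), adjusted p = 0.0244) and Psmb10 (log2 fold change 1.19 ± 0.25 (SE), adjusted p = 0.0319), and they were called in no other comparison of 2 conditions. Calls of these 3 and of the 28 genes were not rechecked in the alternative fits. In the same comparison no member stayed called with the receptor reads as a covariate.

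The members varied about as much between tumors of a group as other genes of their level. The biological coefficient of variation that edgeR estimated for each gene had a median of 0.217 over the 36 in the time course and 0.172 at day 7, beside 0.561 and 0.741 over all genes. Genes of at least 10 CPM had medians of 0.204 and 0.188, close to the members. The steadiest was Psma4 in both experiments (0.143 and 0.137), followed by Psmd4 in the time course (0.159) and by Psmb1 and Psmd13 at day 7 (0.143 each). The most variable were Psma8 and Psmb11, at the limit of detection, and after them Psmd10 (0.314 and 0.281), followed by Psmb2 in the time course (0.313) and Psmc1 at day 7 (0.25). From the lowest to the highest tumor, the 34 genes differed 1.62- to 3.78-fold in the time course and 1.46- to 3.24-fold at day 7, the narrowest being Psma4 and Psmd13 and the widest Psmd10 and Psma5.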

How the data were processed

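RNA-seq of bulk tumors was analysed from a table of gene counts. According to the labels and the methods, the authors removed adapters (cutadapt 1.8.1), aligned them to mm10 with STAR 2.7.7a, quantified genes of GENCODE vM21 with RSEM 1.3.0 and deposited whole-number counts per gene, not normalized. The name of the count file points to a different counter, featureCounts, and which of these tools made the deposited counts was not settled. How strand was treated in the counting is not given in the sources used here. Groups came from the sample titles. The 36 members and all gene lists were chosen with earlier results of these data known, and no list is independent evidence.

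Each experiment was normalized and fitted on its own in R 4.3.3 with edgeR 4.0.16: filterByExpr (minimum count 10), TMM factors, a mean per condition, glmQLFit and glmQLFTest, with two-sided p-values adjusted by Benjamini-Hochberg over all 26848 (30 time course libraries) or 30837 (18 day 7 libraries) genes and called under 0.05. All values in CPM use TMM library sizes. Members are named by rule: the catalytic Psmb5, Psmb6 and Psmb7, Psma8 and Psmb11, the chaperones, up to 5 called members per direction or else the one with the smallest p, the 5 smallest p over all conditions, the extremes of level and spread; other genes were the called ones, Nfe2l1, Psme1, Psme2 and Pomp. Others are named for position, overlap between groups or single tumors, after their values were seen. Background reads were the counts per kb of exon on 1781 sensory receptor genes. Alternatives were DESeq2 1.42.0 and its size factors, no filter, a replicate block, background subtracted or as covariate, fewer groups and each replicate left out; 2 contrasts of differences and the principal transcript length were added after seeing the data. Counting error intervals are not given, since every value rests on replicates. The edgeR fit of day 7 was tested on simulated counts for KO against WT in untreated tumors only, and the other steps were not tested in this way. No 2 replicates were copies: counts of the 48 replicate pairs differed with a chi-square of 16.2 to 411 per gene.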

Additional observations from a re-analysis of the deposited data

Results flagged for a closer look

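Whether the difference between tumors labelled KO and WT was itself different in untreated and in anti-PD-1-treated tumors was tested as an interaction in edgeR's fit, after the values were seen. For 5 alpha subunits the log2 difference of the differences (untreated minus anti-PD-1) was positive: Psma7 1.21 (adjusted p = 0.0207), Psma3 1.11 (0.0207), Psma5 0.86 (0.0372), Psma6 0.79 (0.0457) and Psma4 0.60 (0.0441). The lid subunit Psmd3 moved the other way, with -0.99 (adjusted p = 0.0371): it was 96.4, 115 and 129 CPM in untreated KO, 169, 158 and 154 CPM in untreated WT, and 159, 80.7 and 102 CPM in WT anti-PD-1 tumors. Over 19 alternative settings Psma3 was past the threshold in 17 and Psma7 in 16, but Psmd3 in 6, Psma5 in 5, Psma6 in 4 and Psma4 in 3. The values ran from 0.94 to 1.34 for Psma3, 0.50 to 1.48 for Psma7, 0.58 to 1.11 for Psma5, 0.24 to 1.06 for Psma6, 0.44 to 0.84 for Psma4 and -1.36 to -0.02 for Psmd3, with adjusted p up to 1 for each. In that contrast 19.6% of all genes were called higher and 2.85% lower, and with the receptor reads as a covariate no member was called. Replicates 3 and 4 of WT anti-PD-1 are the libraries with the most receptor reads, and the part of those reads in these values was not tested.

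Psmb11 was also flagged in that contrast, with 9.34 (adjusted p = 0.0411), a value that depends on the prior count, and it was past the threshold in 7 of the 19 settings (1.69 to 12.9). Its groups did not overlap in opposite directions, with a log2 fold change of 3.73 between untreated genotypes and -5.61 after anti-PD-1. Its counts per library were 72, 8 and 13 in untreated KO, 0, 6 and 3 in untreated WT, 0, 0 and 5 in KO anti-PD-1 and 11, 80 and 31 in WT anti-PD-1 tumors, and the 3 highest were in the 3 libraries with the most receptor reads.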

How the results depend on the processing

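In the time course no member was called under any alternative or without any single replicate. At day 7 the untreated genotype comparison (4 members called) gave 2 with the replicate block, 0 with the background covariate, 12 with DESeq2 and 1 to 3 without single replicates (1 without WT untreated replicate 1 or 2). After anti-PD-1 (0) it gave 1 with no filter, 2 with DESeq2 and 0 to 5 without single replicates, 5 without WT anti-PD-1 replicate 2. The mean over 3 treatments (0) gave 4 with no filter, 1 with the covariate, 8 with DESeq2 and 0 to 4 without single replicates, 4 without KO untreated replicate 1. Anti-PD-1 against IgG in WT (0) gave 1 with DESeq2 and 0 to 3 without single replicates, 3 without WT anti-PD-1 replicate 2. IgG against untreated (0) gave 3 with no filter, 2 with the replicate block, 4 with the covariate, 9 with DESeq2, 9 with only the groups compared and 0 to 4 without single replicates, 4 without KO untreated replicate 1. The test over 6 conditions (6) gave 10 with no filter, 3 with the block, 17 with DESeq2, 13 without WT anti-PD-1 replicate 2 and 3 without replicate 4. The contrast of untreated with anti-PD-1 (7) gave 4 with no filter, 2 with the block, 4 with background subtracted, 0 with the covariate, 12 with DESeq2, 0 with only the groups compared, 9 without WT anti-PD-1 replicate 2 and 1 without replicate 4, and that with IgG (0) gave 1 with no filter and 2 with DESeq2. For the alternative fits at day 7, here and above, the share of all genes called is not given. Their counts therefore show how the calls of members moved, and not whether members were called more often than other genes. The cause of these changes was not tested. In all, 288 of 340 alternative counts were within 1.5 times the main count and 52 were not. The 288 include every count of the time course, where the main count and all alternatives were 0, so that all 52 lie at day 7. Of 329 values of single members, 225 kept their side of the threshold and 104 lost it. In the test over 6 conditions, which has no direction, called members kept theirs in 19 to 24 of 24 settings. Where there was a direction none changed it, but calls were kept less often. Between untreated genotypes they were kept in 3 to 12 of 13 settings per member, and for untreated minus anti-PD-1 in 3 to 17 of 19. Of 280 medians 279 moved by less than their spread, and of 20 counts of members that did not overlap 19 stayed within 1.5 times (KO against WT after anti-PD-1 gave 5 with background subtracted). DESeq2's size factors shifted the median log2 fold change of all genes from -0.91 to -1.02 for KO against WT after anti-PD-1, from 0.68 to 0.79 for anti-PD-1 against IgG in WT and from 1.36 to 1.53 for untreated minus anti-PD-1. Samples with the same replicate number did not deviate together (median correlation -0.00532 over 65 pairs and -0.0134 over 36 pairs), so the numbers were not taken to pair samples.

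With 3 tumors per condition and 12 residual degrees of freedom at day 7, small differences could not be told from the spread. Whether depth limited the tests of the 34 widely used genes was not tested. The lowest value among them was that of Psmd10, at 2.73 CPM in the time course and 4.49 CPM at day 7. Psma8 and Psmb11 lay near or under the 3 counts that a count of 0 allows in many libraries. Pseudogenes resembling Psmb5, Psmb6 and Psmb7 are annotated, and reads could be split between them. Same-strand or opposite-strand gene overlaps touch Psma4, Psma5, Psmb5, Psmb7, Psmc3, Psmd1, Psmd3, Psmd9 and Psmd13. The tumors were sequenced in bulk, so that tumor cells and the host cells, which carry the knockout in tumors labelled KO, were not separated.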

Other observations

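Of the 36 genes, 6 had a protein-coding gene starting on the opposite strand, within 1 kb upstream or a short distance downstream of their own start (16.7%). The same window gave 7.94% of all 21951 protein-coding genes. These pairs were Psma2 and Mrpl32 (75 bases apart), Psma7 and Ss18l1 (76), Psmb1 and Tbp (137), Psmc2 and Dnajc2 (32), Psmc5 and Ftsj3 (75) and Psmd10 and Atg4a (179). Within groups of the time course, the immunoproteasome subunits followed the mean of the 34 widely used constitutive genes less closely than those genes followed each other. The r was 0.327 for Psmb8, 0.289 for Psmb9 and 0.431 for Psmb10 beside a median of 0.859 (30 tumors, given without a test). The other 9509 genes of at least 10 CPM had a median of 0.421, so this was not particular to the immunoproteasome subunits.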
